A study of Mus musculus with 9 samples.

Results

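The genes described here are 9 genes of the smooth muscle and actin cytoskeleton, chosen by name: the actin genes Acta2 and Actb, the calponin family genes Tagln and Cnn1, the myosin light chain gene Myl9, the thin filament genes Tpm1, Tpm2 and Cald1, and the filamin gene Flna. They were found among 14771 named mouse genes through RefSeq identifiers, where they held 11 of 16260 transcript rows, and rows of the same symbol were summed. Their levels were followed in 9 libraries of 3 groups. The AG libraries (AG_1, AG_2 and AG_3) were made from astroglia of strain C57BL/6 whose genotype label reads p53 DN, Nf1 shRNA. The BS libraries (BS_287, BS_295 and BS_296) came from tumour cells of the brainstem and the OB libraries (OB_257, OB_287 and OB_295) from tumour cells of the olfactory bulb, both in a 129;C57BL/6 mix with Foxr2 overexpression and p53 cko, where Foxr2 is a forkhead transcription factor. All 3 groups therefore carry a p53 entry in the genotype label. The sources used here do not give the driver of Foxr2, the Cre line or the ages. Strain, genotype and the way the cells were grown cannot be told apart in a comparison with AG. The labels leave it unsaid whether a group's libraries are separate animals or cultures, so p-values measure the spread between these libraries, which may be technical.

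Actin subunits assemble into filaments, on which myosin pulls once its regulatory light chain has been phosphorylated. In smooth muscle these filaments carry tropomyosin, caldesmon and calponin along their length, which tune the access of myosin, while filamins and actinins tie filaments into networks. Many of the genes share control by serum response factor (SRF) and its coactivators of the MRTF family, which are released from actin monomers as filaments form and which act at the CArG box of promoters. In brain tissue Acta2, Tagln and Cnn1 are known from the mural cells of vessels, and cultured astroglia and fibroblasts can make them too.

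The bases before the transcription start of Acta2 and Myl9 are shown because these were the promoters of the gene set with matches to the CArG box or to a CArG-like element, in which 1 base of the A and T core is G or C. Each line gives 250 bases upstream of the RefSeq start in build GRCm38.p6, 5′ to 3′ on the strand of the gene, with CArG, CArG-like and MCAT matches in capitals. The MCAT element was searched as CATTCC, the TATA box as TATAAA, and each motif on both strands, with no overlap between the matches in these windows.
Acta2, chr19:34255374-34255623, minus strand: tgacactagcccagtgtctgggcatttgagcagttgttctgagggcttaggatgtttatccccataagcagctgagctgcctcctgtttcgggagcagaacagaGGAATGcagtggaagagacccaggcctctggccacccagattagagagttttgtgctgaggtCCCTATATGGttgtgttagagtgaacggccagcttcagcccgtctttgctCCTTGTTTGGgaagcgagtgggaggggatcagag
Myl9, chr2:156775214-156775463, plus strand: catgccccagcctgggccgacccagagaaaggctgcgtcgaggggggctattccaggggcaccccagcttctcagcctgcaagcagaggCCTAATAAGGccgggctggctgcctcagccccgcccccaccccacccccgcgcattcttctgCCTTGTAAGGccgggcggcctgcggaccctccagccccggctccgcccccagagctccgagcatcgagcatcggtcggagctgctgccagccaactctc
In Acta2 the CArG-like matches CCCTATATGG and CCTTGTTTGG lay at -84 to -75 and at -34 to -25 from the start, and an MCAT match read on the other strand, GGAATG, at -146 to -141. In Myl9 a CArG box, CCTAATAAGG, lay at -161 to -152 and a CArG-like match, CCTTGTAAGG, at -99 to -90. Of 32851 mouse promoter windows of the same length, 1.47% held a CArG box, 7.24% a CArG-like match and 8.59% either. MCAT matches stood in 12.6% of windows and TATA box matches in 12.4%. The RefSeq table held 8 windows for 7 of the 9 genes (Tagln and Actb had none there). Besides those shown, an MCAT match lay in windows of Tpm1, Cald1 and Flna, and a TATA box match in a second window of Cald1. These matches are letters in a window, and binding was not measured.

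Values are normalized reads, the reads of a gene divided by 1 size factor per library, and differences are between values of log2(normalized reads + 1), called the log2 scale from here on, on which the change of a low gene comes out too small. The libraries held 11300273 to 19868282 reads. A check of the labels found Foxr2 at 0, 0.986 and 0 in AG and at 4505 to 12567 in the tumour libraries, and Nf1 at 1334 to 1588 in AG against 4184 to 8620 in the tumours. Trp53 did not separate the groups, with 23.3 to 34.8 in AG, 18.1 to 35.5 for BS and 17.7 to 51.4 for OB. Which part of Trp53 is deleted is not stated, so its row does not check that label. The AG libraries were close to each other, with correlations across genes of 0.992 to 0.993, and farther from the tumour libraries, at 0.705 to 0.741. A gene with several curated RefSeq transcripts tended to have low rows here, with a median row value of 258.6 where a gene had 1 transcript and of 12.6 where it had 2. For that reason low values of Tpm1 (1 of 10 transcripts had a row in the table analysed here), Tpm2 (2 of 3) and Flna (1 of 2) are not read as low expression. Reads between close relatives, such as Acta2, Actg2 and Actc1, Actb and Actg1, or Myl9, Myl12a and Myl12b, may have been split or dropped, since how shared reads were treated is not stated in the sources used here.

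Most of the 9 genes were called lower in both kinds of tumour cell than in AG. The AG mean was more than 1000-fold higher for Acta2 and about 2-fold higher for Actb, whose call depended on the scaling. Of the 9 genes, 8 passed the filter of 10 normalized reads in at least 3 libraries and Flna did not. In BS against AG, 7 of the 8 were lower and 0 higher by limma at an adjusted p under 0.05, with Myl9 the exception, where 35.1% of 10576 genes were called at all and 19.5% were called lower. In OB against AG the count was again 7 lower and 0 higher, where 34.9% of genes were called and 19% were called lower. Each of the 8 genes had every tumour library below every AG library in both comparisons, which held for 31.8% of genes in BS and 30.8% in OB. The median log2 difference of the 8 genes was -4.21 in BS and -4.54 in OB, beside -0.03 and -0.01 over all genes tested. Tpm1 passed the filter through its AG libraries alone, and Cnn1 with 1 tumour library at 10 reads or more, so these had to be higher in AG to be tested. Without Tpm1, 6 of 7 were lower in each comparison, with medians of -3.95 and -4.41, and Cnn1 is still 1 of these 6. Without all genes that passed through AG alone or through the tumours alone, 18.7% of 9177 genes were called lower in BS and 18.2% in OB. In bulk RNA such as this, fewer cells of a type and less RNA per cell cannot be told apart.

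**Figure D1:**
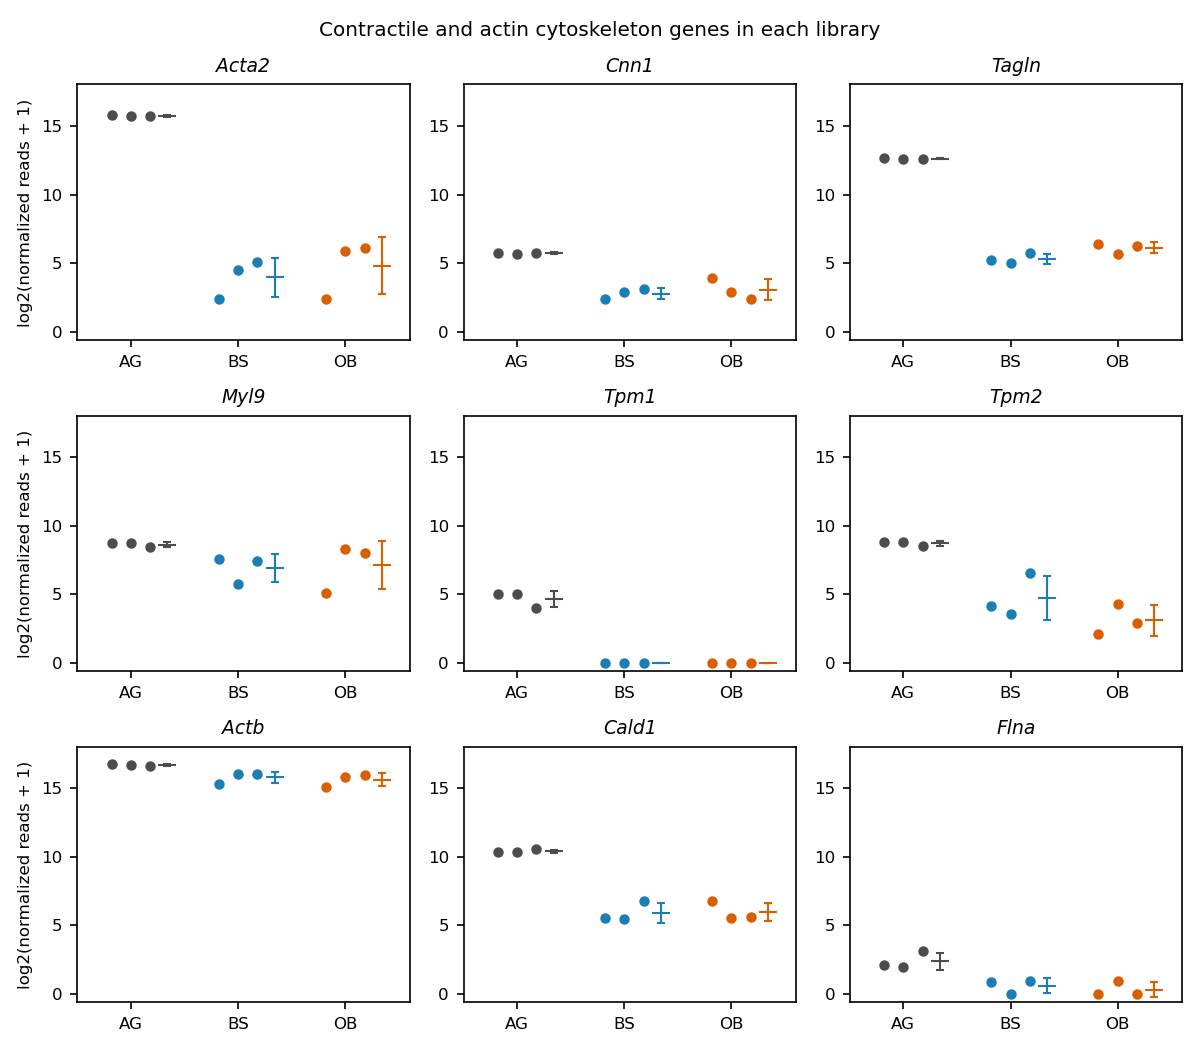
Level of each of the 9 genes in each library, as log2(normalized reads + 1) on the vertical axis, for AG (grey), BS (blue) and OB (orange); points are libraries in the order of their titles, and bars are the mean ± SD over 3 libraries. The AG points of Acta2 and Tagln lie far above the tumour points, those of Actb and Myl9 just above them, and Tpm1 is at 0 in all 6 tumour libraries.

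Acta2, the alpha-actin of smooth muscle, stood at 55942, 52507 and 52897 normalized reads in AG_1, AG_2 and AG_3. In BS it had 4.19, 22.4 and 32.5, and in OB 4.42, 58.1 and 69.6. The AG libraries were alike, and the tumour libraries split within each site, with BS_287 and OB_257 at 5 and 4 reads. The AG mean was 53782 ± 1881 (SD, n = 3), 2730-fold that of BS and 1222-fold that of OB. The log2 difference was -11.72 ± 1.01 (SE) in BS, with a limma adjusted p of 6.53e-05. In OB it was -10.89 ± 1.01 (limma adjusted p = 9.86e-05). Acta2 took 0.328% of all reads in AG on average and at most 0.000525% in a tumour library.

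Actb, the cytoplasmic beta-actin often used as a reference transcript, had 110547, 101288 and 97582 normalized reads in AG. The BS libraries had 40535, 66131 and 65491, and the OB libraries 33935, 57168 and 63225. The groups did not overlap, and BS_287 and OB_257 were again the lowest. Actb differed from AG by -0.88 ± 0.28 (SE) on the log2 scale in BS (limma adjusted p = 0.0378) and by -1.05 ± 0.28 in OB (limma adjusted p = 0.0183). The call in BS was lost without AG_1, AG_2, AG_3, BS_287 or BS_296, each left out on its own (limma adjusted p from 0.0511 to 0.116), and that in OB without any 1 AG library (limma adjusted p from 0.0520 to 0.0681). It also depended on scaling: with upper-quartile scaling, under which the median difference of all genes went from -0.03 to 0.15 in BS, Actb differed by -0.71 (limma adjusted p = 0.0648). With quantile normalization the difference was -0.06 in BS and -0.19 in OB (limma adjusted p = 0.886 and 0.598).

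Tagln, the actin-bundling protein SM22 of smooth muscle, had 6345, 6149 and 6264 normalized reads in AG. It had 36.1, 30.9 and 53.2 in BS and 85.1, 50.4 and 77.2 in OB. The libraries within each side lay close together, as those of AG differed by 1.03-fold at most and the 6 tumour libraries by 2.75-fold. The AG mean was 156-fold that of BS and 88.2-fold that of OB. On the log2 scale Tagln differed by -7.29 ± 0.29 (SE) in BS (limma adjusted p = 1.43e-06) and by -6.48 ± 0.29 in OB (limma adjusted p = 2.33e-06).

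Cnn1, the calponin that binds actin and slows the myosin ATPase in smooth muscle, was a low row in AG too, with 53.4, 49.3 and 53.4 normalized reads. In BS it had 4.19, 6.40 and 7.88, and in OB 14.4, 6.66 and 4.35. Its highest tumour library, OB_257, was among the lowest for Acta2. The AG mean was 8.44-fold that of BS and 6.15-fold that of OB, with log2 differences of -2.92 ± 0.46 (SE) and -2.63 ± 0.46 (limma adjusted p = 0.00157 and 0.00264), and the ratio to OB was 9.45 without OB_257. These rest on 19 reads in BS and 24 in OB. Cnn1 passed the filter with 1 tumour library at 10 normalized reads or more, so the filter largely set the direction of its test.

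Myl9, the regulatory light chain through which phosphorylation turns smooth muscle and non-muscle myosin on, was the exception. It had 415.2, 414.9 and 340.8 normalized reads in AG, 191.2, 53.3 and 172.4 in BS, and 33.2, 314.0 and 249.96 in OB. The lowest AG library lay 1.09-fold above the highest tumour library, OB_287, and the tumour libraries differed by 9.47-fold. The log2 difference was -1.68 ± 0.83 (SE) in BS (limma adjusted p = 0.152) and -1.48 ± 0.83 in OB (limma adjusted p = 0.199), and neither passed the test. In BS it passed when OB_257 was left out of the shared fit (limma adjusted p = 0.0237), when BS and AG were fitted alone (limma adjusted p = 0.0366) and without OB_257 and BS_287 together (limma adjusted p = 0.0113). In OB without OB_257 and BS_287 together the difference was -0.47 (limma adjusted p = 0.444).

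Tropomyosins lie along the actin filament and set which myosins and other proteins can bind it. Tpm2 had 440.2, 449.4 and 359.4 normalized reads in AG, 16.8, 10.7 and 92.6 in BS, and 3.32, 19.0 and 6.52 in OB. BS_296 was the highest tumour library and lay 3.88-fold under the lowest AG library. The log2 difference of Tpm2 was -3.95 ± 0.82 (SE) in BS (limma adjusted p = 0.00657) and -5.58 ± 0.82 in OB (limma adjusted p = 0.00112). The AG mean was 10.4-fold that of BS and 43.3-fold that of OB, and these ratios were 30.3 without BS_296 and 84.7 without OB_287. Tpm1 had 30.9, 31.5 and 15.2 normalized reads in AG and 0 reads in all 6 tumour libraries. Against a floor of 3 reads per library, AG was at least 8.95-fold higher than BS and at least 8.23-fold higher than OB (limma adjusted p = 4.10e-05 and 4.42e-05), on 83 reads in AG for a gene with 9 more transcripts that had no row in the table analysed here. Because Tpm1 was tested only for its AG level, this test could come out in 1 direction only.

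Cald1, caldesmon, which blocks myosin on the filament until calcium signals release it, had 1258, 1258 and 1470.1 normalized reads in AG. It had 44.4, 43.7 and 106.4 in BS and 106.1, 45.7 and 47.8 in OB. The tumour libraries of both sites covered the same range, far under AG. The AG mean was 20.5-fold that of BS and 20.0-fold that of OB, and the log2 differences were -4.46 ± 0.44 (SE) and -4.41 ± 0.44 (limma adjusted p = 0.000142 and 0.000148). Flna, filamin A, which crosslinks actin filaments into networks, had 3.34, 2.96 and 7.62 normalized reads in AG, 0.839, 0 and 0.985 in BS, and 0, 0.952 and 0 in OB. With 14 reads in AG, 2 in BS and 1 in OB, its row was too low for the filter and no fold is given. Tested with no filter, Flna had limma adjusted p of 0.0310 in BS and 0.0160 in OB. On so few reads it is not counted here as a lower gene.

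**Figure D2:**
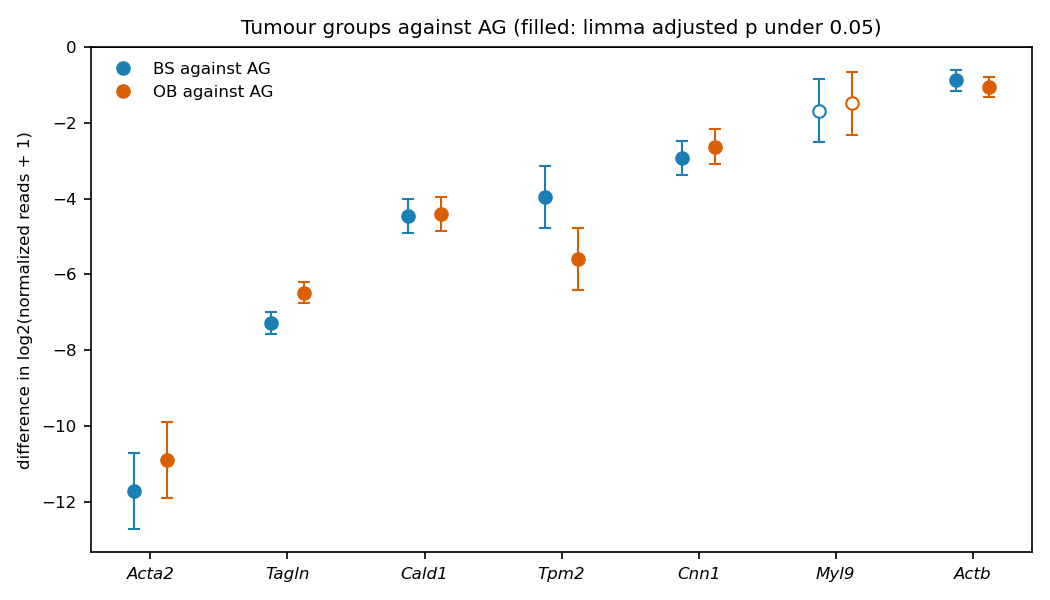
Difference from AG in log2(normalized reads + 1) of the 7 tested genes with reads in every group, for BS (blue) and OB (orange); bars are ± 1 SE from limma, and filled points had an adjusted p under 0.05. The differences run from -11.72 for Acta2 in BS to -0.88 for Actb in BS, and the open points are Myl9.

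Set against Actb within each library, which removes the size factor, Acta2 had 506 to 542 reads per 1000 Actb reads in AG and 0.103 to 1.10 in the tumours. Tagln had 57.4 to 64.2 in AG and 0.468 to 2.51 in the tumours, and Cald1 11.4 to 15.1 against 0.661 to 3.13. These ranges did not overlap between AG and the tumours. Those of Myl9 did, with 3.49 to 4.10 reads per 1000 Actb reads in AG and 0.807 to 5.49 in the tumours, where BS_287 and OB_287 (4.72 and 5.49) exceeded all AG libraries. These shares show unequal change of the genes and not that any of them was constant.

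Between tumour sites 0 of the 8 tested genes were called by limma in OB against BS, where 0% of all genes were, and 0 had every OB library below every BS library, which held for 4.63% of genes. At an unadjusted p under 0.05 limma had 1019 of 10576 genes, of which Tagln was 1. With OB and BS fitted alone there were 499 genes, and 0 of the 8 among them. The shared fit also draws on the AG libraries, whose spread was smaller, so its p-values and intervals between sites may be too tight. After adjustment edgeR called 0 genes and DESeq2 237, and neither called any of the 8. Tagln came nearest, higher in OB by 0.81 on the log2 scale (95% interval 0.16 to 1.46, unadjusted p = 0.0205, limma adjusted p = 0.445). The intervals of the others were wide: -1.49 to 3.13 for Acta2, -3.50 to 0.24 for Tpm2, -1.71 to 2.09 for Myl9, -0.96 to 1.07 for Cald1, -0.75 to 1.34 for Cnn1 and -0.80 to 0.46 for Actb. A difference of several fold between sites in Acta2, Tpm2 or Myl9 is inside these intervals.

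The spread within the tumour groups was itself uneven between genes. The SD of log2 values of Acta2 was 0.05 among AG, 1.43 among BS and 2.07 among OB libraries, beside medians over all genes of 0.12, 0.47 and 0.48. For Tagln it was 0.02, 0.39 and 0.40. From the highest to the lowest of the 6 tumour libraries the ratio was 27.9 for Tpm2, 16.6 for Acta2, 9.47 for Myl9, 3.43 for Cnn1, 2.43 for Cald1 and 1.95 for Actb. The libraries did not keep one order: BS_287 and OB_257 were lowest for Acta2 and Actb, OB_257 was highest for Tagln and Cnn1 and lowest for Tpm2 and Myl9, and BS_296 was highest for Tpm2 and Cald1. OB_257 was also low in 3 astrocyte markers, with Slc1a3 at 88.4 against 11447 to 25665 in the other tumour libraries, Gja1 at 1.11 against 369 to 2879 and Sox9 at 25.4 against 2836 to 5229. It was the highest of the tumour libraries for S100b, at 6616, and inside their range for Aldoc, at 17.7. Without OB_257 and BS_287 together, a choice made after seeing the data, 8 genes were called lower in BS and 7 in OB. Acta2 then differed by -10.91 in BS and by -9.70 in OB, and between OB and BS by 1.205 (limma adjusted p = 0.0676).

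Cald1 has 2 rows, which are given apart because their shares changed places between AG and most tumour libraries. The row NM_001347100 had 1099.8, 1082 and 1345 normalized reads in AG, 0.839, 3.20 and 10.8 in BS, and 15.5, 3.81 and 32.6 in OB. The row NM_145575 had 158, 175 and 125 in AG, 43.6, 40.5 and 95.6 in BS, and 90.6, 41.9 and 15.2 in OB. Of the reads in both rows, NM_001347100 took 87.4%, 86.1% and 91.5% in AG and 1.89%, 7.32% and 10.2% in BS. In OB it took 14.6% in OB_257 and 8.33% in OB_287 but 68.2% in OB_295 (exact 95% interval 52.4 to 81.4, on 30 of 44 reads). Fitted by row, NM_001347100 differed by -8.02 in BS and by -6.40 in OB on the log2 scale (limma adjusted p = 0.000165 and 0.000568). NM_145575 differed by -1.44 in BS and by -1.93 in OB (limma adjusted p = 0.107 and 0.0415). Transcripts of a gene share exons, so a row holds the reads that the counting gave to it. In Tpm2 the row NM_001277876 held 105, 56 and 45 reads in AG and 1 read in the 6 tumour libraries together, while NM_009416 went from 310.4 to 394.2 normalized reads in AG to 3.32 to 92.6 in the tumours.

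**Figure D3:**
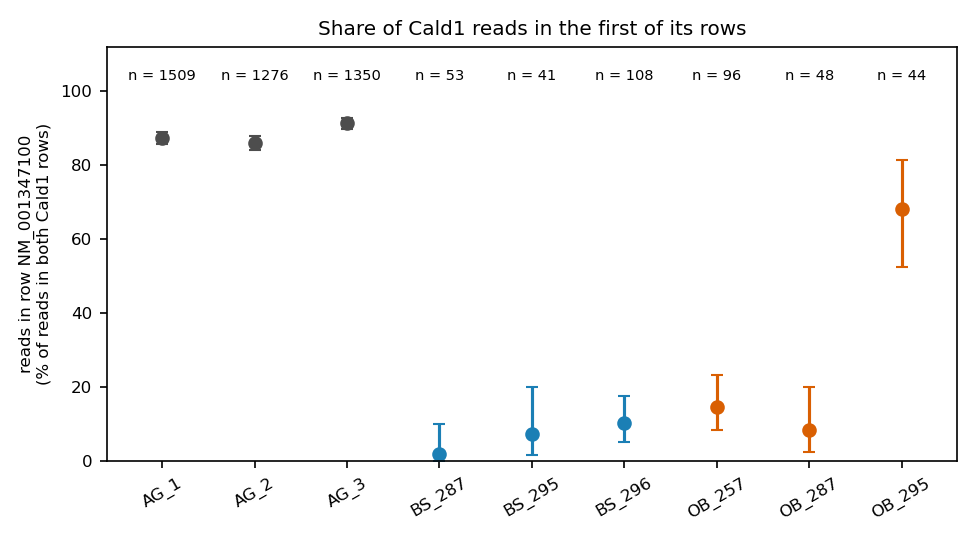
Share of the reads in both Cald1 rows that fell in the row NM_001347100, in percent, for each library; bars are exact 95% binomial intervals, which cover counting error only, and n is the number of reads in both rows. The 3 AG libraries lie between 86.1% and 91.5%, 5 tumour libraries at 14.6% or less, and OB_295 at 68.2%.

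Of 3 other actin isoforms tested, 1 was called higher and 0 lower in each comparison with AG, where 15.6% of genes were higher in BS and 16% in OB. Actc1, the cardiac alpha-actin, rose from 2.50, 1.97 and 7.62 normalized reads in AG to 21.0, 54.4 and 565.5 in BS and 71.8, 54.2 and 218.4 in OB (limma adjusted p = 0.0187 and 0.0164). The call was lost without AG_1 or AG_2 in both comparisons and without OB_295 in OB (limma adjusted p from 0.0562 to 0.0711). The BS mean of Actc1 was 53.0-fold that of AG, 9.35-fold without BS_296 and 95.5-fold without AG_3, and the OB mean was 28.5-fold that of AG, 15.6-fold without OB_295 and 51.4-fold without AG_3. Actc1 passed the filter through the tumours alone, so the filter largely set the direction of its test. Of the 2 other isoforms 0 were higher and 0 lower in each comparison (median log2 differences of -0.73 in BS and -0.57 in OB). Actg2, the gamma-actin of smooth muscle, had 10.8 to 14.2 in AG, which OB_257 reached (BS 0 to 4.93, OB 0 to 14.4; limma adjusted p = 0.0904 and 0.165).

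Of the other tropomyosins, tropomodulins and calponins, 3 of 5 tested were lower and 1 higher in each comparison, with a median log2 difference of -2.08 in BS and -1.74 in OB. Beside this list and those that follow, 19.5% of all genes tested were lower in BS and 19% in OB, and 15.6% and 16% higher. With 1 AG library left out, 1024 to 1042 genes were lower in BS and 1027 to 1048 in OB, of 10173 to 10187 tested. Cnn2, the calponin of non-muscle cells, had 17730.3 to 20786 normalized reads in AG, against 242 to 759 for BS and 471 to 897 for OB, with log2 differences of -5.44 ± 0.41 (SE) and -4.75 ± 0.41 (limma adjusted p = 2.95e-05 and 6.38e-05). Tpm4, a cytoplasmic tropomyosin, went from 23003 ± 374 in AG to 5548 ± 1817 in BS and 3039 ± 1612 in OB, and Cnn3 from 27830 ± 253 to 6650 ± 992 and 8769 ± 3531. Tmod1, which caps the pointed end of filaments, rose from 16.6 ± 4.14 to 78.2 ± 35.2 in BS and 56.6 ± 28.1 in OB, a call that in OB was lost without AG_1, AG_2, AG_3 or OB_287 (limma adjusted p from 0.0655 to 0.111). Among filamins and crosslinkers 5 of 7 tested were lower and 1 higher in each comparison (medians -2.22 and -2.50). Actn1, the alpha-actinin of stress fibres, went from 704 ± 60.5 in AG to 50.2 ± 31.0 in BS and 48.7 ± 6.60 in OB, and Flnc, filamin C, from 67.9 ± 26.4 to 2.91 ± 4.33 and 2.32 ± 2.11. Without any 1 AG library the count of lower crosslinkers was 3 in BS and 1 in OB, and it was 3 in OB without OB_257 or OB_295. Flnc and Pls3 passed the filter through AG alone, so they had no test without an AG library. Tagln3 passed through the tumours alone, and of the 4 other crosslinkers 3 were lower and 0 higher in each comparison (medians -2.16 and -2.67). The AG mean of Actn1 was 14.0-fold that of BS and 21.7-fold without BS_287. For Flnc it was 23.3-fold that of BS and 29.3-fold that of OB, or 162-fold without BS_296 and 61.9-fold without OB_287. The tumour means of Flnc, 2.91 and 2.32, lie near a floor of 3 reads per library (2.89 normalized reads in BS, 3.14 in OB). Its ratios therefore rest on very few tumour reads and do not give the size of the change. Tagln3, the neuronal relative of Tagln, rose from 7.13 ± 2.48 to 295.1 ± 350 in BS and 127 ± 121 in OB. That call was lost in BS without AG_1 or AG_3 and in OB without AG_1, AG_2, AG_3, BS_295, OB_287 or OB_295 (limma adjusted p from 0.0565 to 0.130). The BS mean of Tagln3 was 41.4-fold that of AG and 13.4-fold without BS_296, and the OB mean 17.8-fold and 8.56-fold without OB_295.

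Of 13 tested genes of non-muscle myosin and its regulation, 7 were lower in each comparison, 0 were higher in BS and 1 in OB (medians -0.92 and -1.06). Myh9, the heavy chain of non-muscle myosin IIA, had 65156 to 77941 normalized reads in AG, with BS at 1640 to 5949 and OB at 5169 to 7857, and log2 differences of -4.33 ± 0.43 (SE) and -3.59 ± 0.43 (limma adjusted p = 0.000144 and 0.000398). Mylk, the kinase that phosphorylates the Myl9 protein, went from 1739.7 ± 120.2 in AG to 166 ± 178 in BS and 96.4 ± 44.0 in OB (limma adjusted p = 0.00738 and 0.00675). Myl12b, a close relative of Myl9, did not pass the test, with means of 1729 ± 117, 1556 ± 111 and 1943 ± 231 in the 3 groups (limma adjusted p = 0.463 and 0.425). The AG mean of Mylk was 10.5-fold that of BS and 26.0-fold without BS_295. Ppp1r14a passed the filter through the tumours alone, and without it 7 of 12 were lower and 0 higher in each comparison.

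Of the other smooth muscle genes, 7 of 12 tested were lower and 1 higher in BS, and 6 lower and 1 higher in OB (medians -2.46 and -2.49). The counts of lower genes were 4 and 3 without any 1 AG library. Cav1, caveolin 1, had 80.8 to 101.3 normalized reads in AG, 2 reads in BS and 0 reads in OB, where AG was at least 28.6-fold higher against the floor. Pdlim7, a LIM protein of stress fibres, differed by -4.87 ± 0.28 (SE) in BS and by -4.22 ± 0.28 in OB (limma adjusted p = 8.42e-06 and 1.93e-05). Pdlim3, a LIM protein of muscle, went the other way, from 1 read in AG to 84.1 ± 85.6 in BS and 40.8 ± 7.71 in OB (limma adjusted p = 0.00160 and 0.00218). Cav1 passed the filter through AG alone, so it had no test without an AG library. Pdlim3 passed through the tumours alone, and of the 10 others 6 were lower in BS and 5 in OB and 0 higher (medians -2.46 and -2.49).

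SRF and its coactivators act on many of these genes. Srf had 3095, 2860.1 and 2608 normalized reads in AG, 1437, 2254 and 2522 in BS, and 1956, 1923 and 2238 in OB, and did not pass the test (-0.50 ± 0.22 and -0.48 ± 0.22 (SE), limma adjusted p = 0.109 and 0.118). In OB it passed when OB and AG were fitted alone, without BS_287, and without OB_257 and BS_287 together (limma adjusted p from 0.0272 to 0.0387). Mrtfb did not pass the filter, with 1 read in AG, 13 in BS and 4 in OB. Mrtfa went from 152 ± 45.9 in AG to 57.2 ± 17.6 in BS and 49.4 ± 14.0 in OB (limma adjusted p = 0.0213 and 0.0119). The BS call was lost without AG_1, AG_2, AG_3 or BS_296 and the OB call without AG_1 (limma adjusted p from 0.0539 to 0.0970). Of the 10 tested genes of the SRF list, 6 were lower and 0 higher in each comparison, with medians of -2.12 and -2.44. The lower ones were Vcl, Fhl2, Mrtfa, Cnn2, Tpm4 and Myh9. Of these, Vcl, Cnn2, Tpm4 and Myh9 are counted in other lists here too, so the SRF count is not separate from those. Vcl, vinculin, which couples actin to adhesions, differed by -3.16 ± 0.37 (SE) and by -2.96 ± 0.37 (limma adjusted p = 0.000338 and 0.000486). Fhl2 had 185 reads in AG, 2 in BS and 1 in OB, so it passed the filter through AG alone. Without it 5 of 9 were lower in each comparison (medians -2.10 and -1.91).

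YAP and TAZ, whose activity follows actin tension in many cells, and their TEAD partners form a related list. Of its 10 tested genes, 7 were lower in BS and 9 in OB and 0 were higher (medians -3.32 and -3.87), and 4 and 3 were lower without any 1 AG library. Wwtr1 (TAZ), Tead1, Tead4 and Ankrd1 passed the filter through AG alone, so they failed it and had no test without an AG library. Of the 6 others 4 were lower in BS and 5 in OB (medians -3.32 and -3.38). Ankrd1, a muscle ankyrin repeat gene, had 1363, 1399 and 1442 normalized reads in AG, 0 reads in BS and 1 read in OB, at least 485-fold higher in AG than in BS. Ccn2, a matricellular growth factor gene, had 8749 to 9146 normalized reads in AG, 4.19, 14.9 and 26.6 in BS and 1.11, 33.3 and 86.9 in OB. As with Acta2, BS_287 and OB_257 were the lowest of their groups. The AG mean of Ccn2 was 584-fold that of BS and 220.0-fold that of OB (limma adjusted p = 0.000624 and 0.000822), and that of Ccn1 77.3-fold and 45.5-fold (limma adjusted p = 0.00113 and 0.00262). For Ccn2 these ratios were 930.4 without BS_296 and 517 without OB_295, and for Ccn1 134 without BS_295 and 70.5 without OB_295.

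Further lists covered filament turnover and attachment, beside shares over all genes of 19.5% lower in BS and 19% in OB, and of 15.6% and 16% higher. Of 17 tested genes of actin turnover, 9 were lower in BS, 11 in OB and 1 higher in each (medians -0.96 and -0.93), and 6 were lower in OB without any 1 AG library. Cttn, cortactin, went from 456 ± 39.9 in AG to 38.3 ± 13.7 in BS and 34.5 ± 5.90 in OB, and Dstn, the filament-severing destrin, differed by -1.79 and -1.31 on the log2 scale (limma adjusted p at most 0.000379). Of 9 tested focal adhesion genes 5 were lower in BS and 4 in OB, and 1 higher in each (medians -1.45 and -1.30), with Tln1, the talin gene, at differences of -2.31 and -2.16 (limma adjusted p = 0.000251 and 0.000365). Vcl and Pdlim7 were among the lower ones and are counted in lists above too. Of 5 tested membrane linkers 2 were lower in BS and 3 in OB, and 0 higher (medians -0.81 and -1.21). Msn, moesin, had 100487 to 101333 normalized reads in AG, where BS had 10019 to 13463 and OB 2869 to 11989 (limma adjusted p = 0.000920 and 0.000187), and it was the 1 linker still lower without any 1 AG library. The AG mean of Msn was 14.8-fold that of OB and 23.9-fold without OB_287. Of 7 tested actin-binding genes of neurons and glia 2 were lower in BS and 1 in OB, with 1 higher in each (medians 0.25 and -0.26), and 0 were lower without any 1 AG library. The lower genes were 28.6% of this list in BS and 14.3% in OB, near the shares over all genes. Marcksl1 was the higher one, from 3659 ± 374 in AG to 10021 ± 1449 in BS and 9772 ± 4067 in OB (limma adjusted p = 0.00853 and 0.0129, and 0.0550 in OB without AG_3). In OB against BS 0 genes of these lists were called.

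**Figure D4:**
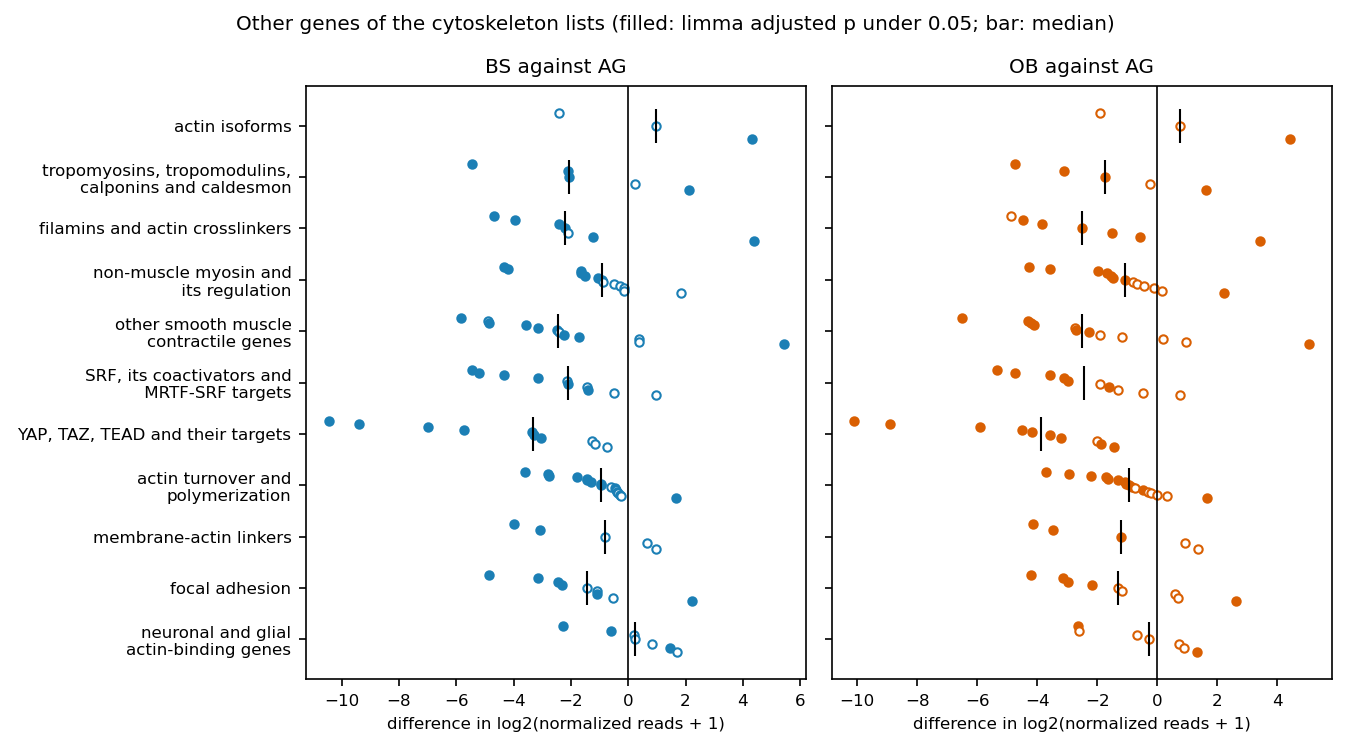
Difference from AG in log2(normalized reads + 1) of the tested genes of 11 related lists, without the 9 genes, in BS (left) and OB (right); each point is a gene, filled points had a limma adjusted p under 0.05, and the bar is the list's median. A gene held by several lists is shown in each of them. Most filled points lie left of 0, with medians down to -3.32 in BS and -3.87 in OB for the YAP, TAZ and TEAD list, while Actc1, Tagln3 and Pdlim3 lie to the right.

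By Euclidean distance between log2 profiles centred over the 9 libraries, the gene most like Acta2 was Anxa1, an annexin (distance 1.40, Pearson r = 0.997). Gprc5a, Col1a1, Anxa3 and Tnfrsf11b came next, at 2.30 to 3.06. Anxa1 had 19001 to 21019 normalized reads in AG and 0.839 to 19.0 in the tumours. Among all other tested genes, Tagln ranked 105, Tpm1 323, Tpm2 334, Cald1 396, Cnn1 868, Myl9 1375 and Actb 2058 by this distance to Acta2. The profiles were not scaled, so the ranks also follow the size of each gene's change. Pearson r of these genes with Acta2 ran from 0.700 for Myl9 to 0.969 for Tagln, with 0.915 for Actb and 0.902 for Cnn1. Actb was most like Ctdsp1, a phosphatase gene, and Klhl21 (distances 0.284 and 0.324). Such likeness is carried by the split between AG and the tumours that the 9 libraries share.

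Markers of other cells differed between the same groups. Summed fibroblast and mesenchyme markers, all 10 of which were in the table, ran from 43122 to 54494 normalized reads in AG, while BS had 586 to 4451 and OB 211 to 519. Of the 8 tested, 6 were lower in both, among them Col1a1 (35280 to 46040 in AG, 3.35 to 64.1 in the tumours). Thy1 went the other way, with 0 reads in AG, 513 to 4380 normalized reads in BS, where it was called higher (10.90 on the log2 scale, limma adjusted p = 0.00370), and 0, 307 and 280 in OB (limma adjusted p = 0.0647). With 0 reads in AG, Thy1 passed the filter through the tumours alone, so its test could come out in 1 direction only. Thy1 made up most of the BS sum. Dcn and Postn were at 0 in BS and OB, so they could pass the filter through AG alone. The count of lower markers was not split in this way. Of 13 smooth muscle and pericyte markers 8 were in the table, and their sums were 215 to 248 in AG, with 851 to 2806 for BS and 1277 to 1666 for OB, where Notch3 alone had 18.7 to 30.5 in AG and 761 to 2767 in the tumours. Of the 4 tested, 2 were called higher and 1 lower in each comparison with AG (median log2 differences of -0.81 in BS and 1.36 in OB). Lmod1, a leiomodin of smooth muscle filaments, had 143 to 166 in AG and 6.66 to 54.3 in the tumours, and Des, desmin, was at 0 in AG. Of the astrocyte markers with 1 curated transcript, Slc1a3, Gja1 and Sox9 had 753 to 855, 4961 to 5396 and 2328 to 2947 in AG. S100b, the other one, had 25.01 to 27.2 there and 5.87 to 6616 in the tumours. Gfap, Aqp4 and Aldh1l1, which have several, had 0.834 to 5.91 in AG, and Aldoc, with 2, had 0 to 1.09. Summed astrocyte markers, 8 of 9 in the table, were 8602 to 8693 in AG, with 17391 to 30952 for BS and 6749 to 34933 for OB. Oligodendrocyte precursor markers, with all 8 in the table, summed to 25.8 to 30.6 in AG, with Olig2 at 0, against 55157 to 124359 in the tumours. Endothelial markers, 4 of 6 in the table, summed to 921 to 1035 in AG and 11.1 to 242 in the tumours, with Cdh5 and Cldn5 at 0 in AG. Flt1 made up nearly all of the AG sum, with 910.5 to 1027 in AG and 0 to 3.94 in the tumours, while Kdr had 7.88 to 10.8 in AG and 6.63 to 241.5 in the tumours. Striated muscle markers, 3 of 6 in the table, summed to 0.834 to 3.27 in AG, with Myod1 and Actn2 at 0, and to 25.4 to 80.9 in the tumours, where Actc1 and Pdlim3 were higher too. The part of these cell types in the levels of the contractile genes was not tested.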

How the data were processed

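Per the labels' protocols, RNA was extracted with Sepazol and 9 mouse libraries were prepared with a TruSeq stranded kit. Tools named in the submitters' processing notes are DESeq2 1.20.0, Subread 1.6.2 with featureCounts, HISAT2 2.1.0 and bcl2fastq 1.8.4, with build mm9. The sources used here give neither the annotation nor the strand setting. The table the authors deposited holds a signal, reads divided by 1 size factor per library (0.905 to 1.20): with the factor undone, 100% of values were whole within 0.05 reads. AG libraries held 14987773 to 19868282 reads, BS libraries 12680832 to 15282668 and OB libraries 11300273 to 13927771. Positions of genes are not given, since the table's build differs from that of the reference, and promoters are RefSeq's of GRCm38.p6.

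Rows were named from RefSeq (16202) or GENCODE (41), 17 unnamed rows were left out, and rows of 1 symbol were summed. limma 3.58.1 in R 4.3.3 was fitted to log2(value + 1) in all 9 libraries, with a mean per group, a variance trend, two-sided tests and Benjamini-Hochberg adjustment over 10576 genes that reached 10 in at least 3 libraries. It was tested on simulated reads first. Alternatives were pseudocounts, filters, scalings, other variance models, 2-group fits, the highest row per symbol, DESeq2 1.42.0 and edgeR 4.0.16 on the recovered reads, and libraries left out. A gene at 0 in a group was given a bound against 3 reads per library (2.91 normalized reads in AG, 2.89 in BS, 3.14 in OB), which, like the exact intervals, covers counting error only. The genes and lists were chosen with earlier results of these data known. The lists overlap, and a gene such as Vcl, Cnn2 or Pdlim7 is counted in each list that holds it. Named besides the 9 genes are at most 4 called genes per list with the largest changes in BS, then OB, SRF and its coactivators, the genes of the genotype labels, and the nearest profiles to Acta2 and Actb. Actg2, Myl12b and the single markers were picked after their values were seen.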

Additional observations from a re-analysis of the deposited data

How the results depend on the processing

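For the 8 tested genes in 3 comparisons, 545 values were recomputed under up to 24 settings. Of these 529 kept their side of the threshold, 13 lost the call (all Actb) and 3 gained it (Myl9 in BS), and 0 were called in the other direction. Uncalled differences between OB and BS changed sign across settings for some genes. They ran from -0.41 to 0.22 for Actb, -0.54 to 1.62 for Cald1, -0.40 to 1.53 for Myl9 and -0.34 to 0.63 for Cnn1. Besides the settings given with Actb, its call in BS was lost with no variance trend (adjusted p = 0.0583) and by edgeR (-0.79, adjusted p = 0.0582). Of the 9 genes, 5 to 8 were called in each comparison with AG, and 0 between the tumour sites. In OB the count of 8 came only with no filter, with the few reads of Flna among the calls. Tpm1 had no value without an AG library or with a filter of 50, where it failed the filter. Over all genes the count in BS against AG was 2001 to 4344 and in OB against AG 2086 to 4123 with 1 library left out, the low ends without an AG library. In OB against BS it was 6 with a pseudocount of 5, 4 with 0.5, 3 with quantile normalization, 2 with no variance trend, 237 by DESeq2, 69 without OB_257 and BS_287 together and 0 to 67 with 1 library left out (67 without OB_287). With upper-quartile scaling 2032 genes were higher and 1723 lower in BS (1652 and 2060 as reported), and 2021 and 1759 in OB (1687 and 2008 as reported). With quantile normalization the numbers were 1877 and 1718, and 1846 and 1746, by edgeR 1899 and 1780, and 1960 and 1764, and by DESeq2 2193 and 2077, and 2235 and 2046. Numbers recur in the titles BS_287 and OB_287 and in BS_295 and OB_295, and what they mark is not stated. Deviations of same-numbered libraries correlated at 0.069 and 0.299, and those of differently numbered BS and OB libraries at -0.412 to 0.291. With so few libraries these values cannot settle whether the numbers mark pairs. The main fit did not take them as pairs. With the number as a replicate block, 246 genes and 0 of the 9 were called in OB against BS, Tmsb4x differed by 1.16 (adjusted p = 0.0301) in place of -0.15 and Ccn2 by 2.59 (adjusted p = 0.00634). Acta2 differed by 2.55 under the block (adjusted p = 0.0534), by 0.82 as reported and by 0.01 to 2.01 with 1 library left out, and the others of the 9 by -0.23 to 1.46 (adjusted p from 0.126 to 1). Of 2517 values of named list genes 2414 were the same, 95 weaker, 7 stronger and 1 reversed. Depth limits Cnn1, Tpm1, Flna and the tumour values of Acta2, Tpm2 and Flnc, which rest on few reads.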
